A study of Homo sapiens with 6 samples.

Results

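Abundant long noncoding RNAs were followed in HEK293, a human embryonic kidney line, after siRNA against circular RNAs. The genes were MALAT1, NEAT1, KCNQ1OT1, GAS5, SNHG1, ZFAS1, DANCR, NORAD, OIP5-AS1 and TUG1, chosen by name as 10 of the 63677 genes in the count table. All 10 passed the filter on low counts that left 22331 genes for testing. Poly(A) RNA was sequenced 48 hours after transfection with Lipofectamine RNAiMAX, in 6 libraries of 2 per group. By the names in the authors' deposited tables, the siRAB3IP libraries received siRNA against circRAB3IP and the siCAMSAP1 libraries siRNA against circCAMSAP1. The libraries named control there received a control siRNA that the labels call NTC. The sample titles differ from these names, as set out below. These circular RNAs carry the names of the RAB3IP and CAMSAP1 genes, and all groups are the same line, grown and transfected alike per the labels' protocols. The series title names gene expression among the effects of circRAB3IP, and each knockdown can be set against control and against the other knockdown.

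Groups are named as in the authors' deposited tables, whose columns were traced to the count columns. The sample titles place 4 of the 6 libraries in another group, and which naming is right was not settled by the sources used here. Grouped by the titles, 0 genes passed edgeR's quasi-likelihood test in any comparison, with 350, 441 and 471 genes at an unadjusted p under 0.05 in siRAB3IP against control, siCAMSAP1 against control and siRAB3IP against siCAMSAP1. No other tool was run in that grouping, and every direction below rests on the table names. The libraries held 37379217 to 39637733 fragments assigned to genes, so 3 fragments stood for 0.0757 to 0.0803 CPM (a gene's fragments scaled to the total of the library). No label tells whether the 2 libraries of a group are separate cultures, and the p-values describe the spread between these libraries alone, which may be technical. Among markers of HEK293, KRT18, VIM, EYA1 and INA were read at a mean above 1 CPM, while NEFM and PAX2 lay between 0.0255 and 0.333 CPM and NEFL and LHX1 were not matched. In edgeR's test KRT18 (-0.72) was lower and INA (1.51) higher in siRAB3IP than in control on the log2 fold change scale. Of 12 markers of other cell types, HBB and PECAM1 were at 0 in all libraries. Whether a count of 0 meant an absent RNA was not tested. The 12 together summed to 16.95 and 18.5 CPM in siRAB3IP, 19.96 and 21.9 CPM in siCAMSAP1 and 20.3 and 22.9 CPM in control. Of the 5 that could be tested, COL1A1 was lower in siRAB3IP than in control (log2 fold change -0.79, adjusted p of 0.00404 by edgeR), and its part in the values below was not tested.

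Long noncoding RNAs are transcribed and mostly spliced like messengers but work as RNA. MALAT1 and NEAT1 stay in the nucleus, at speckles and as the scaffold of paraspeckles. The MALAT1 end and that of the long NEAT1 form are cut by RNase P in front of a tRNA-like fold, which leaves an encoded A-rich stretch held in a triple helix in place of an ordinary poly(A) tail. GAS5, SNHG1, ZFAS1 and DANCR carry small nucleolar RNAs in their introns, and the spliced remainder of several such hosts starts with a pyrimidine tract like ribosomal protein messengers and is removed by nonsense-mediated decay. NORAD binds Pumilio proteins in the cytoplasm, OIP5-AS1 (Cyrano in zebrafish) pairs with miR-7 and triggers its loss, and KCNQ1OT1 is the imprinted antisense RNA of the KCNQ1 locus.

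The A-rich stretches are shown because poly(A) RNA was the input. The longest runs of A were also longer in MALAT1, NEAT1, KCNQ1OT1 and OIP5-AS1 than in the snoRNA hosts. Each line gives 40 bases of the longest annotated transcript, on the strand of the RNA, from GENCODE release 29 (GRCh38), with the longest run of A in capitals. For NEAT1 the last 40 annotated bases are given too, with the A-rich end in capitals.
MALAT1: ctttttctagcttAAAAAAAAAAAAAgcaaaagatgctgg
NEAT1: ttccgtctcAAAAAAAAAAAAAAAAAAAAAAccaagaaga
NEAT1 end: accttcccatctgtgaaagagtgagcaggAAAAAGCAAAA
KCNQ1OT1: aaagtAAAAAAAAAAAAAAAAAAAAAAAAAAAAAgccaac
OIP5-AS1: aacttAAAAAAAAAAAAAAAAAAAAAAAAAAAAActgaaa
The MALAT1 run of 13 A lay at bases 8337 to 8349 of the 8708-base transcript. It stands just before the gatgctgg that opens the tRNA-like fold. KCNQ1OT1 and OIP5-AS1 held runs of 29 A, NEAT1 a run of 22, TUG1 of 18 and NORAD of 10. The longest runs of SNHG1, GAS5, ZFAS1 and DANCR were 6, 5, 4 and 3 bases. Among 16054 lncRNA genes of the same annotation, 0.143% held a run of 29 A or more, 0.878% a run of 22 or more and 5.11% a run of 13 or more. These shares were not matched for transcript length. The longest transcript had 91667 bases for KCNQ1OT1 and 22743 for NEAT1, against 2768 for SNHG1 and 904 for DANCR. The part of length in the runs was not tested.

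The start of the snoRNA hosts and the Pumilio elements of NORAD are shown because each is the feature the RNA is known for. Capitals mark the opening C with at least 4 pyrimidines after it in the hosts, and the element TGTANATA, searched on the RNA strand only, in NORAD.
GAS5 start: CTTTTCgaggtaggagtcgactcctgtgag
ZFAS1 start: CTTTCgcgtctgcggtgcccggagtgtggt
SNHG1 start: CTCCTgtctgcaggatttacgcgcacgttg
NORAD element 1: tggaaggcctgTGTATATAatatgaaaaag
NORAD element 3: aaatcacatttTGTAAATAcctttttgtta
NORAD element 5: tgtgtatatagTGTACATAaaggacagacg
Such a start was annotated for 6 of 29 GAS5 transcripts, 3 of 10 ZFAS1 transcripts, 1 of 25 SNHG1 transcripts and 0 of 5 DANCR transcripts, against 2.49% of 29566 lncRNA transcripts. NORAD held 15 Pumilio elements in 5339 bases, or 2.81 per kb. Of 485 lncRNA genes with a longest transcript of 4 to 7 kb, 35.9% held at least 1 element, and 3, NORAD among them, held 15 or more.

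Per kb of exon, MALAT1 was the most abundant of the 10 RNAs and KCNQ1OT1 the least. MALAT1 (hg19 chromosome 11, 65265233 to 65273940) averaged 113 ± 15.8 CPM per kb (SD over 6 libraries), NORAD (chromosome 20, 34633544 to 34638882) 55.3 ± 3.68 and SNHG1 (chromosome 11, 62619460 to 62623386) 48.4 ± 3.91. ZFAS1 (chromosome 20, 47894715 to 47905797) averaged 43.1 ± 4.47 CPM per kb, TUG1 (chromosome 22, 31366663 to 31375381) 40.05 ± 2.47 and GAS5 (chromosome 1, 173833038 to 173838020) 35.3 ± 3.18. DANCR (chromosome 4, 53578597 to 53586518) stood at 25.2 ± 1.96 CPM per kb, NEAT1 (chromosome 11, 65190245 to 65213011) at 18.2 ± 2.01, OIP5-AS1 (chromosome 15, 41576188 to 41601901) at 9.95 ± 1.32 and KCNQ1OT1 (chromosome 11, 2629558 to 2721224) at 1.19 ± 0.235. The library ranges of neighbours in this order overlapped for NORAD and SNHG1, SNHG1 and ZFAS1, ZFAS1 and TUG1, and TUG1 and GAS5, and for no other neighbouring pair. Exon length was 91667 bases for KCNQ1OT1, 22767 for NEAT1 and 1097 for ZFAS1. Without it, in CPM, NEAT1 had rank 2 in place of 8, KCNQ1OT1 rank 8 in place of 10 and ZFAS1 rank 9 in place of 4. The NEAT1 length includes the long form, and its forms were not counted apart, so its level per kb depends on that length.

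**Figure D1:**
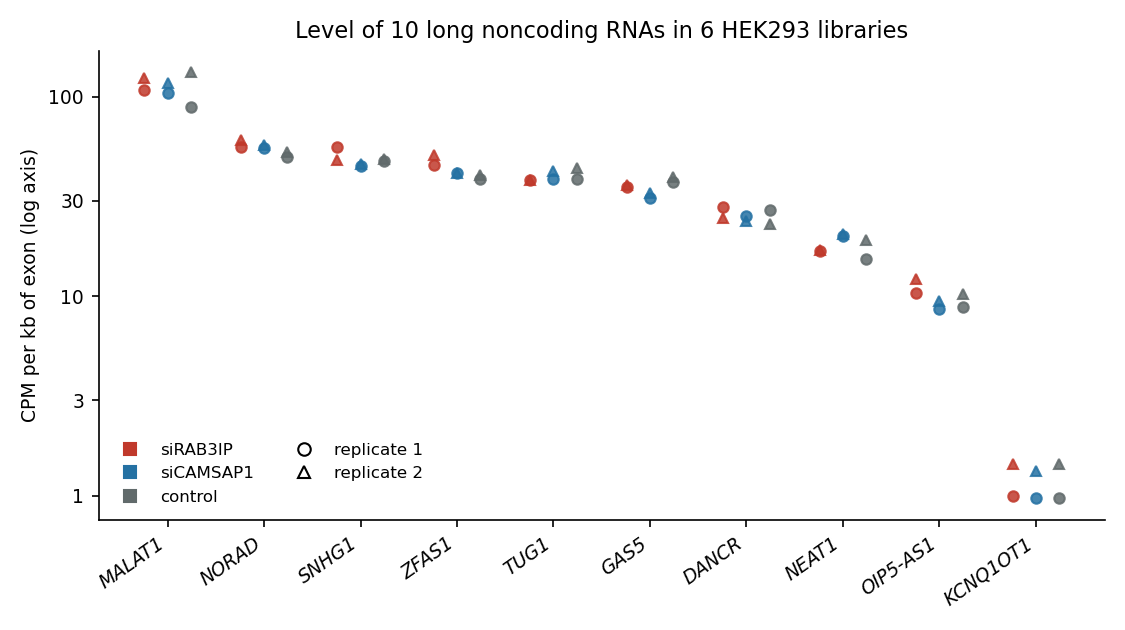
CPM per kb of exon on a log axis for the 10 RNAs, 1 point per library, with siRAB3IP in red, siCAMSAP1 in blue and control in grey. MALAT1 lies between 88.3 and 133 CPM per kb and KCNQ1OT1 between 0.972 and 1.44, and the RNAs from NORAD to GAS5 overlap with their neighbours.

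Together the 10 RNAs took 0.225% to 0.283% of the fragments of a library. MALAT1 supplied 34.2% to 40.8% of that share, and with NEAT1 49.9% to 56.1%. Per kb, MALAT1 exceeded NEAT1, its neighbour 52222 bases away, in every library. The excess was 6.43-fold and 7.28-fold in siRAB3IP, 5.20-fold and 5.72-fold in siCAMSAP1 and 5.73-fold and 6.94-fold in control. NEAT1 was divided by its full exon length, long form included, and the ratios depend on that. Poly(A) RNA was the input, and its part in the ratios was not tested. By fragments MALAT1 was gene number 67 of the table, while DANCR was number 5457 of the 41953 genes with at least 1 fragment, so abundance within the 10 ranged widely.

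In the siRAB3IP libraries 1 of the 10 RNAs passed the test against control, which was ZFAS1, and it was higher. Over all genes 11.6% passed, 6.39% as higher and 5.24% as lower. With library totals as the only scaling the split was 951 genes higher and 1640 lower, in place of 1427 and 1170. At an unadjusted p under 0.05 were 3 of the 10, ZFAS1, OIP5-AS1 and NORAD, against 25.8% of all genes. The libraries of both groups did not overlap in CPM for 5 of the 10 (3 higher and 2 lower), against 54.6% of all genes (20.3% higher and 34.3% lower). The median log2 fold change was 0.14 over the 10 RNAs and -0.01 over all genes tested, 8 of the 10 values were above 0, and no value exceeded 0.35 in size. In bulk RNA a lower level per cell and fewer cells with the RNA cannot be told apart.

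ZFAS1, host of the SNORD12 family, had 49.95 and 55.9 CPM in siRAB3IP, 45.5 and 45.6 CPM in siCAMSAP1 and 42.3 and 44.4 CPM in control. Both siRAB3IP libraries stood above all 4 others. The log2 fold change of ZFAS1 in siRAB3IP against control was 0.35 ± 0.08 (SE), a 1.27-fold rise, with an adjusted p of 0.0178 in the quasi-likelihood test of edgeR (Benjamini-Hochberg over all genes). The adjusted p by edgeR was 0.0606 without control replicate 1, 0.0676 without control replicate 2 and 0.166 without siRAB3IP replicate 2. ZFAS1 shares 249 exon bases, 22.7% of its own, with ZNFX1, a helicase gene on the opposite strand. The counting used no strand and dropped fragments over several genes, so fragments in the shared bases went to neither gene. ZNFX1 had a log2 fold change of 0.21 and an adjusted p of 0.156 by edgeR in the same comparison, and the part of the overlap in the ZFAS1 value was not tested. Of the 3 snoRNA genes in the span of ZFAS1, SNORD12, SNORD12B and SNORD12C, each averaged under 2 CPM, and their adjusted p was 0.0989 or more by edgeR in all 3 comparisons.

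OIP5-AS1 had 124 and 147 CPM in siRAB3IP, 103 and 114 CPM in siCAMSAP1 and 106 and 123 CPM in control. The siRAB3IP values lay above the others, with the lower siRAB3IP library close to the higher control library. Against control the log2 fold change of OIP5-AS1 was 0.31 ± 0.09 (SE), with an adjusted p of 0.0540 by edgeR. Against siCAMSAP1 it was 0.35 ± 0.09 (SE), a 1.27-fold rise, with an adjusted p of 0.0376 by edgeR. OIP5, the gene it is named after and a centromere factor on the opposite strand, shares 436 of its exon bases and had a log2 fold change of -0.13 in siRAB3IP against control, at an adjusted p of 0.597 by edgeR.

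NORAD had 298 and 323 CPM in siRAB3IP, 296 and 305 CPM in siCAMSAP1 and 266 and 282 CPM in control. The libraries of either knockdown stood above both control libraries. The log2 fold change of NORAD was 0.25 ± 0.08 (SE) in siRAB3IP and 0.17 ± 0.08 in siCAMSAP1, with adjusted p of 0.0557 and 0.410 by edgeR, and both fits share the control libraries. SNHG1, host of many C/D box snoRNAs, had 212 and 183 CPM in siRAB3IP, 170 and 174 CPM in siCAMSAP1 and 179.9 and 184 CPM in control. The siRAB3IP and control libraries overlapped in CPM, but not with TMM-scaled library sizes. SNHG1 had a log2 fold change of 0.18 ± 0.09 (SE) in siRAB3IP against control, at an adjusted p of 0.208 by edgeR.

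The number of the 10 RNAs called in siRAB3IP depended on the method. DESeq2 called 3 of the 10, ZFAS1 with an adjusted p of 0.00623, NORAD with 0.0204 and OIP5-AS1 with 0.0243. Limma-voom called 2, ZFAS1 and NORAD. Over all genes DESeq2 called 11.4% and limma-voom 11.4%. The authors' deposited table for siRAB3IP, which holds 2192 genes, lists the same 3 RNAs as DESeq2 does here. In the authors' deposited table the log2 fold changes are 0.36 for ZFAS1, 0.31 for OIP5-AS1 and 0.25 for NORAD, which appears there under its older name LINC00657.

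**Figure D2:**
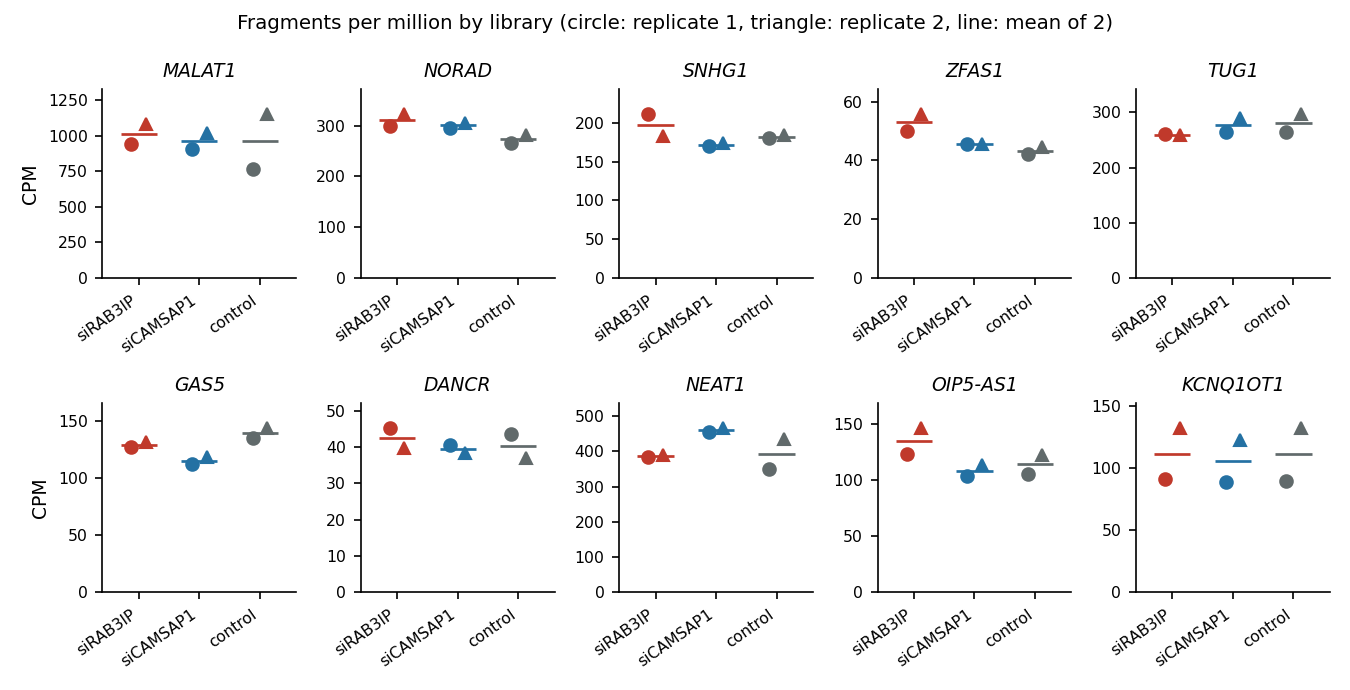
CPM of the 10 RNAs in each library, with siRAB3IP in red, siCAMSAP1 in blue and control in grey; circles are replicate 1, triangles replicate 2 and lines the mean of the 2 libraries, and every axis starts at 0. Both siRAB3IP libraries of ZFAS1, at 49.95 and 55.9 CPM, lie above the other 4, while the control libraries of MALAT1 lie at 769 and 1155 CPM on either side of the rest.

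In the siCAMSAP1 libraries 0 of the 10 RNAs passed edgeR's quasi-likelihood test against control, with 3 at an unadjusted p under 0.05 and 0 called by DESeq2 or limma-voom. Over all genes DESeq2 called 1.71% and limma-voom 0.887%. By edgeR 0.94% of all genes passed, 0.448% as higher and 0.493% as lower, and 12.1% had an unadjusted p under 0.05, and library totals alone moved the split of calls to 74 higher and 128 lower, in place of 100 and 110. The libraries of both groups did not overlap for 5 of the 10 (3 higher and 2 lower), against 41.4% of all genes (17.2% higher and 24.1% lower). The median log2 fold change was 0.0033 over the 10 RNAs and 0.0008 over all genes tested.

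NEAT1 had 384 and 389 CPM in siRAB3IP, 455 and 467 CPM in siCAMSAP1 and 351 and 435 CPM in control. Both siCAMSAP1 libraries stood above the other 4. The log2 fold change of NEAT1 was 0.26 ± 0.09 (SE) in siCAMSAP1 against control, at an adjusted p of 0.232 by edgeR, and it was 0.15 without control replicate 1 and 0.39 without control replicate 2. The authors' deposited table for siCAMSAP1, with 474 genes, lists NEAT1 alone of the 10 RNAs, at a log2 fold change of 0.28 and an adjusted p of 0.0105.

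GAS5, a host of C/D box snoRNAs whose spliced RNA builds up when growth stops, had 127 and 132 CPM in siRAB3IP, 112 and 119 CPM in siCAMSAP1 and 136 and 144 CPM in control. The 3 groups did not overlap, with control highest and siCAMSAP1 lowest. The log2 fold change of GAS5 was -0.24 ± 0.07 (SE) in siCAMSAP1 against control, at an adjusted p of 0.187 by edgeR. In siRAB3IP against control it was -0.05 ± 0.07 (SE), with an adjusted p of 0.752 by edgeR.

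MALAT1 had 944 and 1084 CPM in siRAB3IP, 905 and 1022 CPM in siCAMSAP1 and 769 and 1155 CPM in control. The lowest and the highest value both belonged to control, so neither knockdown stood apart from it. The log2 fold change of MALAT1 was 0.14 ± 0.14 (SE) in siRAB3IP and 0.04 ± 0.14 in siCAMSAP1, with adjusted p of 0.569 and 0.948 by edgeR. In siRAB3IP it was -0.09 without control replicate 1 and 0.43, with an adjusted p of 0.0251 by edgeR, without control replicate 2.

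KCNQ1OT1 had 91.3 and 132 CPM in siRAB3IP, 89.1 and 122 CPM in siCAMSAP1 and 89.5 and 132 CPM in control. The groups overlapped fully, and the library numbered 2 was the higher one in each. KCNQ1OT1 had log2 fold changes of 0.07 ± 0.18 (SE) in siRAB3IP and -0.03 ± 0.18 in siCAMSAP1 against control, and adjusted p was 0.848 and 0.968 by edgeR.

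DANCR, which hosts SNORA26 and is known for holding progenitor cells back from differentiation, had 45.3 and 39.6 CPM in siRAB3IP, 40.6 and 38.3 CPM in siCAMSAP1 and 43.7 and 37.1 CPM in control. TUG1, first described as induced by taurine in mouse retina, had 259.9 and 258 CPM in siRAB3IP, 264 and 289 CPM in siCAMSAP1 and 264 and 298 CPM in control. The DANCR groups overlapped, and both siRAB3IP libraries of TUG1 stood below the other 4 by a small margin in CPM. With TMM-scaled library sizes the siRAB3IP libraries of TUG1 overlapped the others. Neither DANCR nor TUG1 passed the test in any of the 3 comparisons, with log2 fold changes between -0.06 and 0.14 and adjusted p of 0.497 to 0.994 by edgeR.

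Between the knockdowns 1 of the 10 RNAs passed the test, OIP5-AS1, against 8.85% of all genes, with 4.89% higher in siRAB3IP and 3.96% lower. At an unadjusted p under 0.05 were 5 of the 10, against 23.2% of all genes. These were OIP5-AS1, ZFAS1, SNHG1, GAS5 and NEAT1, and of them NEAT1 had a log2 fold change below 0, at -0.22 ± 0.09 (SE) with an adjusted p of 0.148 by edgeR. The groups did not overlap for 6 of the 10 (4 higher and 2 lower), against 53.2% of all genes (23.3% higher and 29.9% lower), and the median log2 fold change was 0.12 over the 10 RNAs and -0.01 over all genes. The OIP5-AS1 call was lost without siRAB3IP replicate 2 (adjusted p of 0.325 by edgeR), without siCAMSAP1 replicate 1 (0.215) and without siCAMSAP1 replicate 2 (0.0658), and with library totals as the only scaling (0.0728).

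**Figure D3:**
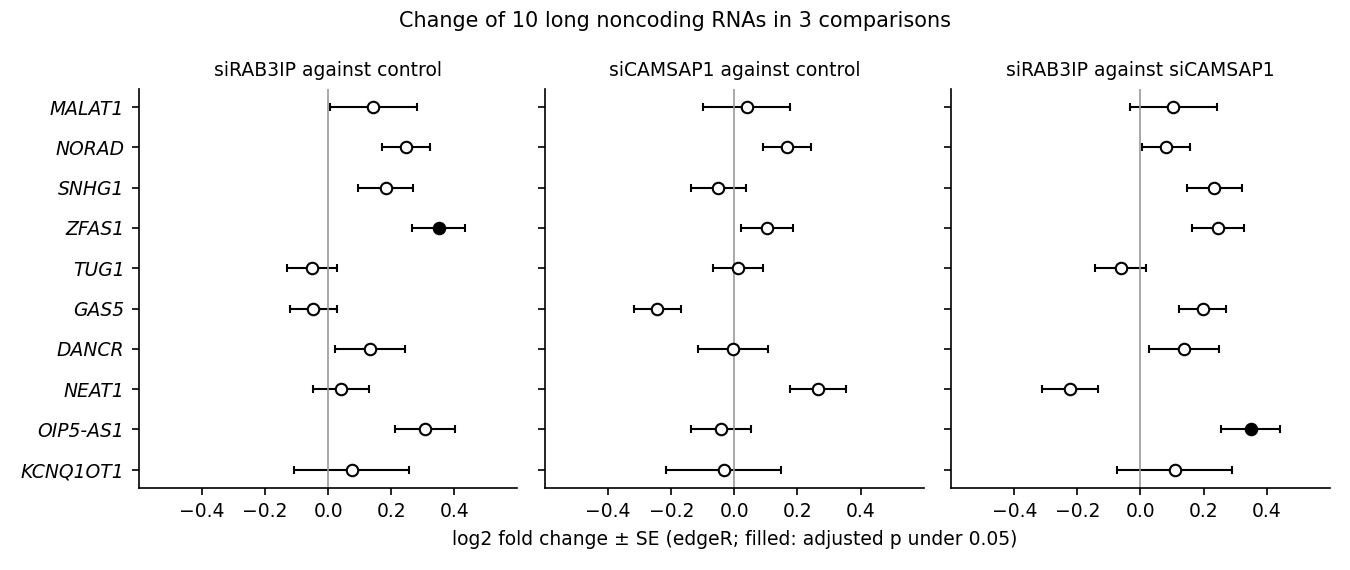
Log2 fold change with its SE for the 10 RNAs in siRAB3IP against control, siCAMSAP1 against control and siRAB3IP against siCAMSAP1, with filled points for an adjusted p under 0.05 by edgeR. ZFAS1 in the first comparison (0.35) and OIP5-AS1 in the last (0.35) are filled, and no point lies beyond 0.35 in size.

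The other genes tied to the 10 RNAs were taken from lists of known partners and relatives. Their counts stand against 6.39% of all genes called higher and 5.24% called lower in siRAB3IP against control, and 4.89% and 3.96% in siRAB3IP against siCAMSAP1. Of 20 further snoRNA host genes tested, 3 rose, against 6.39% of all genes, and 0 fell in siRAB3IP against control, and 15 had a log2 fold change above 0. SNHG12, a host of H/ACA snoRNAs, had 38.8 and 39.3 CPM in siRAB3IP against 27.1 and 25.9 CPM in control, a log2 fold change of 0.62 ± 0.09 (SE) with an adjusted p of 9.73e-04 by edgeR. SNHG6 rose with a log2 fold change of 0.33 and SNHG3, the host of SNORA73, with 0.30, at adjusted p of 0.0355 and 0.0398 by edgeR. The median over the 20 hosts was 0.18, and with upper-quartile scaling or library totals alone 1 of the 20 was called. In siCAMSAP1 0 of the 20 passed edgeR's test, 3 had an unadjusted p under 0.05, and DESeq2 and limma-voom called 0. Between the knockdowns 4 of the 20 were higher in siRAB3IP, SNHG12, SNHG6, SNHG5 and SNHG3, and 0 were lower.

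Of 16 tested factors of nonsense-mediated decay, which removes the spliced RNA of several of these hosts, 1 rose in siRAB3IP against control, a share near the 6.39% of all genes called higher. SMG5, which links UPF1 to the removal of phosphate, had 257 and 241 CPM in siRAB3IP against 198 and 190.3 CPM in control, a log2 fold change of 0.42 ± 0.08 (SE) with an adjusted p of 0.00615 by edgeR. Between the knockdowns UPF2 (0.40), SMG5 (0.32) and CASC3 (0.27) were higher in siRAB3IP on the log2 fold change scale, with adjusted p of 0.0098, 0.0270 and 0.0435 by edgeR. In siCAMSAP1 against control 0 of the 16 passed edgeR's test or limma-voom, 1 had an unadjusted p under 0.05, and DESeq2 called 1 lower. RBM8A was listed at 0 in all 6 libraries, and whether its RNA was absent was not tested.

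Paraspeckle proteins, which assemble on NEAT1, showed 4 falls and 1 rise among 19 tested in siRAB3IP against control, where 5.24% of all genes were called lower and 6.39% higher. SFPQ, one of the proteins that paraspeckles need, had 361 and 349 CPM in siRAB3IP, 476 and 468 CPM in siCAMSAP1 and 455 and 480.0 CPM in control. Its log2 fold change in siRAB3IP against control was -0.33 ± 0.08 (SE), with an adjusted p of 0.0144 by edgeR. CIRBP (-0.40), RBM14 (-0.31) and HNRNPK (-0.27) also fell on the log2 fold change scale, and ZNF24 (0.36) rose, with adjusted p of 0.00908, 0.0271, 0.0476 and 0.0113 by edgeR. NONO, the partner of SFPQ, had a log2 fold change of -0.01. TAF15 was listed at 0 in all libraries, and whether its RNA was absent was not tested. NEAT1 itself was at 0.04 ± 0.09 (SE) in this comparison. The median over the 19 was -0.09, and in siCAMSAP1 0 of the 19 passed edgeR's test, 1 had an unadjusted p under 0.05, and DESeq2 and limma-voom called 0.

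Of 12 genes that act on the ends of MALAT1 and NEAT1, 1 rose in siRAB3IP against control, POP5, a subunit of RNase P, at a log2 fold change of 0.30 ± 0.09 (SE) and an adjusted p of 0.0438 by edgeR. That call was lost with upper-quartile scaling and with library totals alone. ELAC2, the RNase Z that trims the other side of the tRNA-like fold, had -0.16, and METTL16, which binds the MALAT1 triple helix, had 0.0042, neither past the threshold. In siCAMSAP1 0 of the 12 passed edgeR's test, 1 had an unadjusted p under 0.05, and DESeq2 and limma-voom called 0.

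Of 8 protein partners of NORAD, 0 passed edgeR's test in siRAB3IP against control, with 1 at an unadjusted p under 0.05 and 0 called by DESeq2 or limma-voom. PUM2, which binds the elements shown above, had a log2 fold change of 0.09. In siCAMSAP1 0 of the 8 passed, with 0 at an unadjusted p under 0.05 and 0 called by DESeq2 or limma-voom.

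Of 10 tested genes of the imprinted domain around KCNQ1OT1, 1 rose and 1 fell in siRAB3IP against control, where 11.6% of all genes were called. PHLDA2, a maternally expressed brake on placental growth, had 9.49 and 6.53 CPM in siRAB3IP, 4.81 and 3.83 CPM in siCAMSAP1 and 4.01 and 3.68 CPM in control, a log2 fold change of 1.12 ± 0.20 (SE) against control at an adjusted p of 0.00403 by edgeR. OSBPL5 fell by 0.46 on the log2 scale, with an adjusted p of 0.0305 by edgeR. CDKN1C, a cell cycle inhibitor silenced with the domain, had a log2 fold change of -0.17 and did not pass. KCNQ1 averaged 1.28 CPM and had -0.89, with an adjusted p of 0.0822 by edgeR. In siCAMSAP1 0 of the 10 passed edgeR's test, with 0 at an unadjusted p under 0.05 and 0 called by DESeq2 or limma-voom.

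Of 28 other noncoding RNAs tested, 3 rose and 1 fell in siRAB3IP against control, where 11.6% of all genes were called, with a median log2 fold change of -0.11. MIR22HG, the host of miR-22, had 6.64 and 6.53 CPM in siRAB3IP, 4.89 and 4.82 CPM in siCAMSAP1 and 2.81 and 2.65 CPM in control, without overlap of any groups. Its log2 fold change was 1.33 ± 0.16 (SE) in siRAB3IP and 0.86 ± 0.16 in siCAMSAP1 against the same control libraries, with adjusted p of 3.76e-04 and 0.0277 by edgeR. PVT1 (0.47) and CYTOR (0.34) rose in siRAB3IP on the log2 fold change scale, while HOTAIRM1, the antisense RNA at the start of the HOXA cluster, fell by 1.16, with adjusted p of 0.0163, 0.0449 and 1.74e-04 by edgeR. PURPL, a p53-regulated RNA, fell by 0.86 on the log2 scale in siCAMSAP1, with an adjusted p of 0.0350 by edgeR. With upper-quartile scaling or library totals alone the counts in siRAB3IP were 2 higher and 4 lower.

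**Figure D4:**
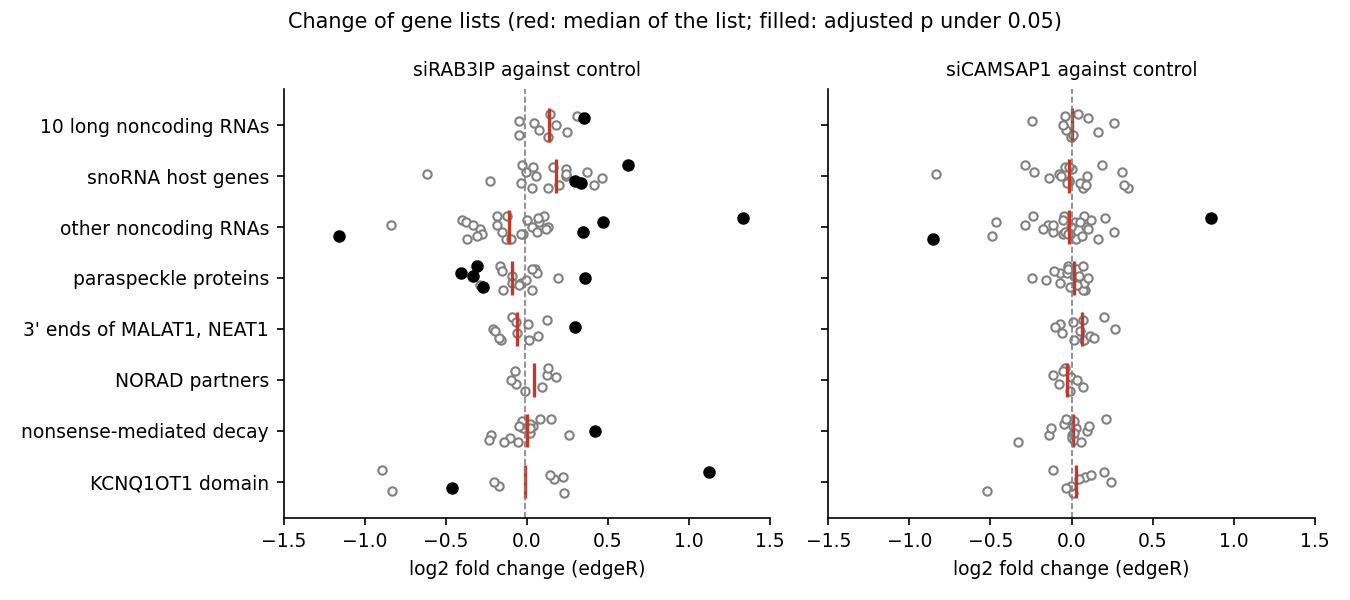
Log2 fold changes of the 10 RNAs and of 7 lists of related genes in siRAB3IP against control and siCAMSAP1 against control, with filled points for an adjusted p under 0.05 by edgeR, a red bar for the list median and a dashed line for the median of all genes. In siRAB3IP the snoRNA hosts have a median of 0.18 and the paraspeckle proteins one of -0.09, and in siCAMSAP1 the filled points are MIR22HG at 0.86 and PURPL at -0.86.

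Of the 18 nearest tested genes on either side of the 10 RNAs, members left out, 4 passed the test in siRAB3IP against control, 2 higher and 2 lower, against 11.6% of all genes. SLC3A2, the heavy chain of several amino acid transporters, begins 132 bases from SNHG1 and had a log2 fold change of 0.60 ± 0.11 (SE), with an adjusted p of 0.00377 by edgeR, while SNHG1 was at 0.18. EPB41L1, a membrane skeleton gene next to NORAD, was at -0.41, MORC2, a chromatin ATPase next to TUG1, at 0.36, and USP46-DT next to DANCR at -0.71, with adjusted p of 0.0172, 0.0254 and 0.0157 by edgeR. In siCAMSAP1 against control the adjusted p of these 4 was 0.434 to 0.737 by edgeR.

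The 2 libraries of a group differed more for some of these RNAs than the groups did. For these ratios CPM used the TMM-scaled library sizes of edgeR's test in place of library totals, with 0.5 added. The log2 ratio of replicate 2 to replicate 1 was 0.50 in siRAB3IP, 0.44 in siCAMSAP1 and 0.50 in control for KCNQ1OT1. For MALAT1 it was 0.18, 0.16 and 0.53. On this scale replicate 2 was the higher library in all 3 groups for MALAT1, KCNQ1OT1, OIP5-AS1, NORAD and GAS5, and the lower one in all 3 for DANCR. In CPM on library totals, NEAT1 and ZFAS1 were also higher in replicate 2 in all 3 groups. Of the 11783 genes averaging 5 CPM or more, 21.1% were higher and 29.5% lower in all 3 on the TMM-scaled values. The mean difference of KCNQ1OT1, 0.48, was at the 99.7th percentile of those genes and that of MALAT1, 0.29, at the 97.5th.

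RNAs that end without a poly(A) tail were followed as a sign of how the libraries were made. Their summed level was 7636 and 9063 CPM in siRAB3IP, 6334 and 8868 CPM in siCAMSAP1 and 6595 and 7596 CPM in control, and most of it was SNORD3A, the U3 snoRNA. That sum was higher in replicate 2 of each group. Of the 8 such RNAs averaging 5 CPM or more, 3 were higher in replicate 2 in all 3 groups. Of 16 such RNAs listed, 10 were matched and tested. All 10 of these RNAs had a log2 fold change above 0 in siRAB3IP against control, with a median of 0.32. Of them 2, SNORA73B (0.48) and SCARNA6 (0.47), passed the test with adjusted p of 0.0103 and 0.0184 by edgeR. Over all genes 6.39% were called higher, and the median was -0.01. In siCAMSAP1 against control 9 of the 10 were above 0, with a median of 0.097. There edgeR, DESeq2 and limma-voom called 0, and 2 had an unadjusted p under 0.05 by edgeR. The part of these RNAs in the values of MALAT1, KCNQ1OT1 and the snoRNA hosts was not tested.

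**Figure D5:**
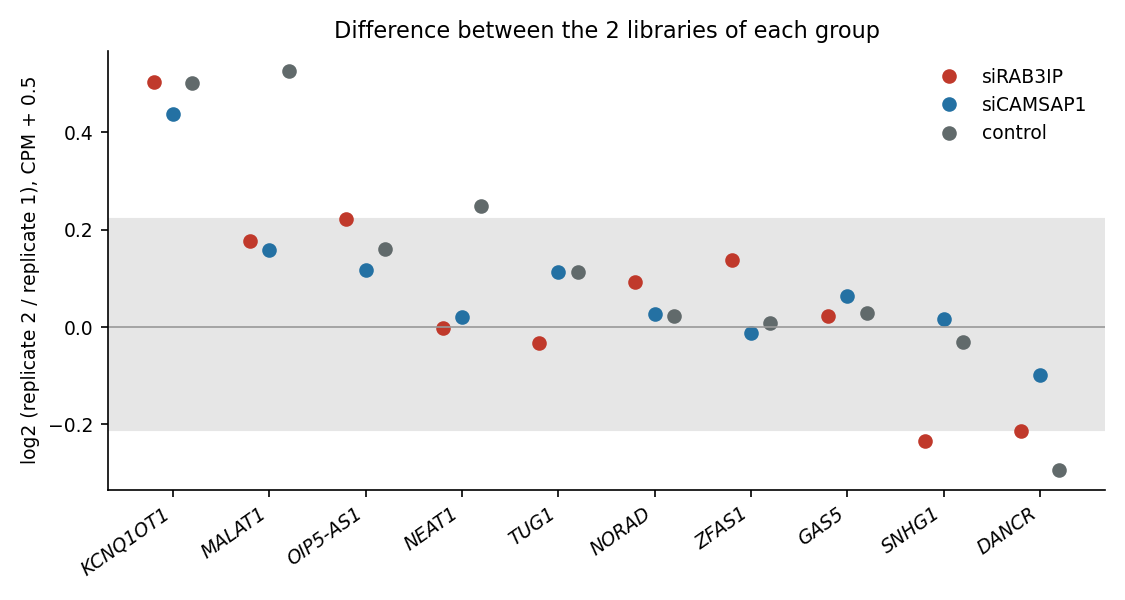
Log2 ratio of replicate 2 to replicate 1 on TMM-scaled CPM + 0.5 in siRAB3IP (red), siCAMSAP1 (blue) and control (grey) for the 10 RNAs, ordered by their mean, with a grey band from the 5th to the 95th percentile (-0.211 to 0.222) of the 3-group mean in 11783 genes. KCNQ1OT1 lies above the band in all 3 groups, and MALAT1 and NEAT1 in control. DANCR lies below it in siRAB3IP and control, and SNHG1 in siRAB3IP. The band is of means and the points are single groups, so a point beyond it need not be beyond that range of single-group differences.

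Genes whose level moved most like that of MALAT1 and NEAT1 over the 6 libraries were found by the Euclidean distance of centred log2 CPM among the 11783 genes. Nearest to MALAT1 was SNORD3B-1, a second U3 copy, at a distance of 0.121, with 51.3 and 55.9 CPM in siRAB3IP, 46.4 and 49.7 CPM in siCAMSAP1 and 40.6 and 58.9 CPM in control. TNFRSF19 (0.140) and ANTXR2 (0.141) followed. Nearest to NEAT1 were GNAL (0.100), YPEL4 (0.116) and PLEKHG5 (0.116). U3 copies are nearly identical, so the split of fragments between them is uncertain.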

How the data were processed

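Poly(A) RNA of 6 HEK293 libraries was measured. Fragment counts per gene were made by the authors using featureCounts 1.6.0, per the file headers; only primary alignments of fragments with both ends mapped were taken, strand was ignored and fragments over several genes were dropped. The submitters' processing notes name STAR, DESeq2 and hg19, whose versions are not given in the sources used here. Tables deposited by the authors hold genes past their threshold, with normalized signal, a log2 fold change and p-values. All 8 normalized columns were matched to a count column (tolerance 1e-09 in log2 ratio), which gave the grouping, since 4 of 6 titles differ from the table names.

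The 10 members and all lists were chosen with earlier results of these data known. Of 168 list entries 159 were matched, and 52181 genes had a symbol in GENCODE release 29. The test was edgeR's (version 4.0.16, R 4.3.3; TMM scaling, default filter, quasi-likelihood test, 1 model over 3 groups, 3 residual degrees of freedom), and p-values had Benjamini-Hochberg adjustment over 22331 genes at 0.05, and the test was checked on simulated data. SE is that of the log2 fold change. CPM uses library totals of 37379217 to 39637733 fragments, except in the ratios of replicate 2 to replicate 1, which use TMM-scaled library sizes. Intervals and the 3-count floor cover counting error only. Named genes were the members, up to 4 called genes per list and comparison with the largest change, overlapping genes, called neighbours and the 3 genes most like MALAT1 and NEAT1. Some list genes are not reported here. Partners and neighbours named without a call were chosen after their values were seen. Alternatives were other scalings, filters, DESeq2 1.42.0, limma-voom (limma 3.58.1), the compared groups alone, a replicate block, the title grouping and leaving out each library. Python 3.11.15, pandas 2.3.3, numpy 2.4.6 and, for figures, matplotlib 3.10.9 were used.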

Additional observations from a re-analysis of the deposited data

Results flagged for a closer look

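OIP5-AS1 differed between the knockdowns. The test of the difference itself, siRAB3IP against siCAMSAP1, gave a log2 fold change of 0.349 and an adjusted p of 0.0376 in edgeR (Benjamini-Hochberg over all genes), with both siRAB3IP libraries above both siCAMSAP1 libraries. Over the 16 alternatives that keep the table names the adjusted p ranged between 2.33e-04 and 0.325, and with the libraries grouped by title the log2 fold change was -0.24. With 2 libraries a group, no library was tested for standing apart within its group.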

How the results depend on the processing

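Of the values of the 10 RNAs in 3 comparisons under 17 alternatives, 441 kept their direction and their side of the threshold. In siRAB3IP against control the number of the 10 called was 3 with RLE scaling, DESeq2 and no filter, 2 with limma-voom, a mean of at least 5 CPM and robust estimation (added after seeing the data), and 0 with the title grouping. In siRAB3IP against siCAMSAP1 it was 0 with library totals alone and with the title grouping. The title grouping called 0 of all genes in each comparison. In siCAMSAP1 against control, DESeq2 called 382 genes and no filter 560, in place of 210. The cause of these changes was not tested.

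With a replicate block, 5371, 1408 and 4630 genes were called in siRAB3IP against control, siCAMSAP1 against control and siRAB3IP against siCAMSAP1, and 4, 2 and 5 of the 10 RNAs: ZFAS1, OIP5-AS1, NORAD and SNHG1 higher, then NEAT1 higher and GAS5 lower, then OIP5-AS1, ZFAS1, SNHG1 and GAS5 higher and NEAT1 lower. Same-numbered libraries deviated together (r of 0.448 for siRAB3IP and siCAMSAP1, 0.452 for siRAB3IP and control and 0.536 for siCAMSAP1 and control, across 11783 genes). With 2 numbers only and nothing in the labels on what they share, the block stays an alternative.

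Leaving out 1 library at a time gave 1034 to 2491, 67 to 210 and 620 to 2296 genes, and 0 to 2, 0 to 0 and 0 to 1 of the 10 RNAs, in the same order of comparisons. A left-out library leaves its group with 1, which is assumed to vary like the other groups. Log2 fold changes that changed sign then spanned, in siRAB3IP against control, -0.094 to 0.43 for MALAT1, -0.076 to 0.17 for NEAT1, -0.20 to 0.35 for KCNQ1OT1, -0.0056 to 0.29 for DANCR and -0.10 to 0.0096 for TUG1. In siCAMSAP1 against control they spanned -0.20 to 0.32 for MALAT1, -0.27 to 0.24 for KCNQ1OT1, -0.12 to 0.037 for OIP5-AS1, -0.15 to 0.15 for DANCR and -0.046 to 0.067 for TUG1. In siRAB3IP against siCAMSAP1 they spanned -0.17 to 0.35 for KCNQ1OT1. In the fit on all libraries none of these RNAs was called in the comparison it is listed under.

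Grouped by titles, the log2 fold change reversed in siRAB3IP against control for SNHG1 (-0.20), ZFAS1 (-0.086), NORAD (-0.014), OIP5-AS1 (-0.070), DANCR (-0.24) and TUG1 (0.052). In siCAMSAP1 against control it reversed for KCNQ1OT1 (0.48) and OIP5-AS1 (0.17). In siRAB3IP against siCAMSAP1 it reversed for MALAT1 (-0.068), NEAT1 (0.027), GAS5 (-0.0026), SNHG1 (-0.047), ZFAS1 (-0.21), NORAD (-0.15), KCNQ1OT1 (-0.24), OIP5-AS1 (-0.24), DANCR (-0.035) and TUG1 (0.0042). Other reversals were near 0: NEAT1 in siRAB3IP against control with library totals (-0.025), and, in siCAMSAP1 against control, DANCR with limma-voom (0.0038) and the replicate block (0.00043) and TUG1 with library totals (-0.022), a mean of at least 5 CPM (-0.0067) and upper-quartile scaling (-0.015). The lowest count of any of these RNAs in a library was 1471 fragments.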
